A study of Mus musculus with 18 samples.

Results

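A set of 10 early response genes was followed across dendritic cells in collagen gels and in suspension. They are the zinc finger transcription factors Egr1, Egr2 and Egr3, the orphan nuclear receptors Nr4a1, Nr4a2 and Nr4a3, the immediate early response genes Ier2, Ier3 and Ier5, and the zinc finger factor Klf2. The members were chosen by name and family, with earlier results of these data known, and each symbol matched 1 Ensembl gene of the count table. The 10 genes are 10 of the 29875 genes in the table, and all 10 were among the 13844 genes that passed the filter on low counts.

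Immediate early genes are transcribed within minutes of a stimulus from factors that the cell already holds, without new protein synthesis. Serum response factor with its ELK and MRTF partners acts at CArG boxes, and phosphorylated CREB acts at cyclic AMP response elements, which carry the core letters TGACG. EGR proteins bind GC-rich sites such as GCGNGGGCG, and their corepressors Nab1 and Nab2 limit them. NR4A proteins are nuclear receptors that act without a known obligatory ligand and are controlled mainly through their own transcription. Ier2 and Ier5 share a conserved N-terminal region, whereas Ier3 is an unrelated stress-response protein that affects cell survival. In myeloid and dendritic cells, these genes are known as rapid responses to pattern recognition, adhesion and mechanical signals. Klf2 is known as a flow-responsive and quiescence-associated factor that restrains inflammatory gene expression.

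RNA was measured in 18 libraries of wild-type mouse bone marrow–derived DCs of the strain C57Bl6/J, from animals 8 to 12 weeks old. All cells had been grown in granulocyte-macrophage colony-stimulating factor (GM-CSF) and matured from day 8 with lipopolysaccharide (200 ng/ml) for 24 hours, so every group, controls included, carries this stimulus. The cells then migrated toward the chemokine CCL19 in bovine collagen gels of 1.7, 2.6, 3.5 or 4.4 mg/ml, and RNA was taken 5 hours after the gradient was set up. Controls were placed in the same chambers without collagen, which is called suspension here, and each of the 6 groups has 3 replicates. The title of one suspension group says that CCL19 was added and that of the other that it was not, but the library names say the opposite. They are therefore called by their titles, and no effect of CCL19 itself is described. A replicate number marks a common date and lane in the library names, so each of these 3 batches holds 1 library of every group. GM-CSF cultures of bone marrow are mixed populations, and each library is a bulk sample of one.

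Total counts ranged from 13062944 to 28059839 per library, and 3 counts correspond to 0.107 to 0.230 CPM, which expresses the count of a gene relative to all counts of its library. Values below are CPM on library sizes scaled by TMM, edgeR's trimmed mean of M-values. Dendritic cell markers (9 of 9 detected in every library) summed to 22424 to 52435 CPM in collagen and 15571 to 48209 CPM in suspension. Transcripts of other cells were present. The 8 neutrophil markers reached 9742 CPM, and the 7 macrophage markers reached 4771 CPM. The T cell and natural killer cell markers Cd3e and Ncr1 had no count in 13 and 17 of the 18 libraries. The methods name male mice, but Xist exceeded 3 counts in 12 of 12 libraries of replicates 1 and 2 and in 0 of 6 libraries of replicate 3. Y-linked genes showed the reverse, in 0 of 12 and 6 of 6 libraries. Replicate 3 therefore stands apart from replicates 1 and 2 in a way that is shared by all 6 groups.

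Promoter sequences of Egr2 and the 3 NR4A genes are shown because they hold the letters read by serum response factor or CREB, and because 3 of these 4 genes rose at 4.4 mg/ml. The promoter of Klf2, which fell, also holds 1 TGACG and is not shown. The printed stretches are the bases before a start site in RefSeq (GRCm38.p6), printed 5′ to 3′ on the gene's strand and ended where an annotated exon of the gene begins. Capitals mark CArG boxes, TGACG and GCGNGGGCG, each searched on both strands, so that CGTCA is TGACG read from the other strand.
Egr2, chr10:67537619-67537868, plus strand: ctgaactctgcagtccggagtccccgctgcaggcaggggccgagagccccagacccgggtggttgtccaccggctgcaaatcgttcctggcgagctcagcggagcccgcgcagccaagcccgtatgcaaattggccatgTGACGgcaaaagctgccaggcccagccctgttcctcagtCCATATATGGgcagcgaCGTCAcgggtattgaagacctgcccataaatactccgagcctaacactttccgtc
Nr4a1, chr15:101266596-101266845, plus strand: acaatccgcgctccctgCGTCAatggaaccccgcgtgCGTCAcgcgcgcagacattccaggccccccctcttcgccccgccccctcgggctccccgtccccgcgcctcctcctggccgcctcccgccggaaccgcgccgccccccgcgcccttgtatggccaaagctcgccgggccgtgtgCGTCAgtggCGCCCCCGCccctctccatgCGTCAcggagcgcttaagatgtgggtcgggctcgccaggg
Nr4a2, chr2:57124004-57124253, minus strand: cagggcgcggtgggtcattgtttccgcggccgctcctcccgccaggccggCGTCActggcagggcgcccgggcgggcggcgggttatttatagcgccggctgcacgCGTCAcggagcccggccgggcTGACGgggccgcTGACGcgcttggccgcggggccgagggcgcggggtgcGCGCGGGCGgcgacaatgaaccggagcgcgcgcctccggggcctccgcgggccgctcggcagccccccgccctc
Nr4a3, chr4:48045055-48045152, plus strand: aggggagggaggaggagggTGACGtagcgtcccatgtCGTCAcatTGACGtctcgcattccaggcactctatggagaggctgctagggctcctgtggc
The Egr2 and Nr4a1 stretches lie inside longer annotated transcripts of the same genes, in introns, and the other 2 lie before the annotated genes.

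Windows of 300 bases, 250 before and 50 after a start site, were available for 7 of the 10 members. Egr1, Egr3 and Ier2 are named only. TGACG occurred 4 times in the window of each of Nr4a1, Nr4a2 and Nr4a3, 1 of the 4 in Nr4a3 lying past the printed stretch. Among 32841 windows searched, 20.8% held at least 1 TGACG on either strand and 0.231% held at least 4. A CArG box was in 4 of the 5 Egr2 windows, which overlap in part, and in 1.63% of all windows. The letters GCGNGGGCG were in the windows of Nr4a1, Nr4a2 and Klf2 and in 5.55% of all windows. The Ier3 and Ier5 windows held none of these letters. No overlap between matches of different motifs was present in the printed stretches, and a match is a description of letters, not of a bound site.

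Levels per length were ranked by CPM per kilobase of merged exon length, averaged over the 18 libraries. Ier3 led with 535 CPM per kilobase, followed by Ier5 with 76.5, Nr4a3 with 41.7 and Ier2 with 32.4. A lower tier held Nr4a2 at 6.71, Egr2 at 4.89, Klf2 at 3.86 and Nr4a1 at 3.47 CPM per kilobase. Egr1 averaged 1.17 and Egr3 0.152 CPM per kilobase, the lowest of the 10. The SD over the libraries was 579 CPM per kilobase for Ier3 and 6.88 for Nr4a1, so that neighbours within the lower tier did not differ beyond their spread. Nr4a3 was the most abundant NR4A gene and Ier3 the most abundant IER gene in all 6 groups.

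**Figure D1:**
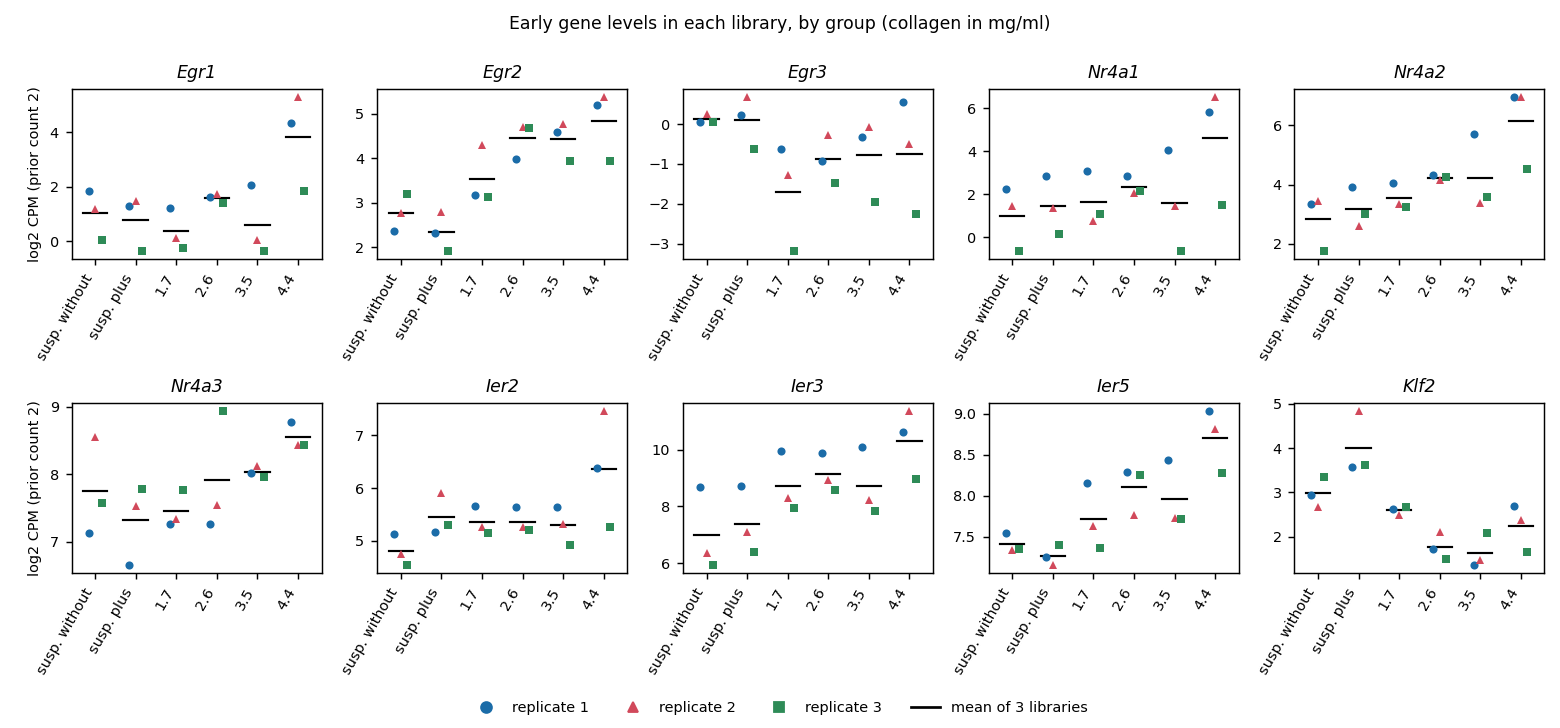
Level of each of the 10 early genes (log2 CPM, prior count 2) in every library, with the suspension groups and the collagen densities (mg/ml) on the horizontal axis. Points are single libraries with their shape and colour by replicate, lines are means of 3 libraries, and each panel has its own vertical scale. Egr1, Nr4a1, Nr4a2 and Ier2 stand high at 4.4 mg/ml in replicates 1 and 2, Egr2, Ier3 and Ier5 are higher at several densities, and Klf2 is lower in collagen.

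Collagen as a whole was first compared with suspension, that is, cells that migrate in a matrix with cells in the same chamber without one. By titles and by library names alike, 1 of the 2 suspension groups had no CCL19, whereas every collagen group had it. Each comparison of collagen with suspension therefore also differs in part in CCL19, and the share of CCL19 in the differences was not tested. Egr2 rose 3.49-fold, Ier3 3.62-fold, Nr4a2 3.02-fold and Ier5 1.76-fold in collagen, and Klf2 fell to 0.354 of its suspension level. These 5 of 10 members passed edgeR's quasi-likelihood test at a false discovery rate (FDR) of 0.1 over all genes. Of all 13844 genes tested, 20.2% passed, 7.78% higher and 12.4% lower in collagen. The median log2 fold change was 0.80 over the 10 members and 0.00269 over all genes. With the replicate number as a block, 9 of 10 members passed, all but Nr4a3, against 34.8% of all genes. In bulk samples, fewer cells of a type and less RNA per cell cannot be told apart. Without replicate 2 in every group, the call remained for Egr2 and Klf2 and was lost for Nr4a2, Ier3 and Ier5. In that fit, 631 of all genes passed, against 2790 with all libraries. The call for Ier3 was also lost without replicate 3 (log2 fold change 1.80, adjusted p = 0.11, 1431 of all genes passing) or without replicate 2 of suspension titled plus CCL19 (1.73, adjusted p = 0.10). The titles call the replicates biological, and the Xist and Y-linked counts show that replicate 3 came from other animals than replicates 1 and 2. The labels do not say whether replicates 1 and 2 came from separate animals, and p-values then measure only the spread between these samples.

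Egr2 (ENSMUSG00000037868, chr10:67535475-67542188, plus strand, GRCm38), a zinc finger factor linked to macrophage and T cell regulation, was the EGR gene with the most even difference between collagen and suspension. In replicates 1, 2 and 3 it measured 4.91, 6.87 and 3.65 CPM in suspension titled plus CCL19 and 5.06, 6.70 and 8.98 CPM in suspension titled without CCL19. It measured 8.94, 19.4 and 8.62 CPM at 1.7 mg/ml and 15.6, 25.7 and 25.4 CPM at 2.6 mg/ml. The libraries at 3.5 mg/ml held 23.9, 27.0 and 15.2 CPM and those at 4.4 mg/ml 36.3, 41.4 and 15.3 CPM. All 9 libraries at 2.6 mg/ml and above exceeded all 6 suspension libraries, whereas 2 of the 3 libraries at 1.7 mg/ml overlapped them. Among all genes tested, the share that lay wholly above suspension was 4.36% at 2.6 mg/ml, 3.92% for 3.5 mg/ml and 4.93% for 4.4 mg/ml. The group means ran from 5.14 ± 1.62 CPM in suspension titled plus CCL19 and 12.3 ± 6.12 CPM at 1.7 mg/ml to 31.0 ± 13.8 CPM at 4.4 mg/ml (SD, n = 3). The means at 2.6 and 3.5 mg/ml, 22.2 and 22.0 CPM, differed by less than their spread. Egr2 rose at 2.6 mg/ml by a log2 fold change of 1.90 ± 0.35 (adjusted p = 0.014), at 3.5 mg/ml by 1.89 ± 0.36 (adjusted p = 0.024) and at 4.4 mg/ml by 2.38 ± 0.35 (adjusted p = 0.0014) in the edgeR fit. Here and below, errors of log2 fold changes are standard errors (SE) of that fit and p-values are adjusted over all genes tested by the Benjamini-Hochberg method. The value at 1.7 mg/ml was 1.05 ± 0.36 (adjusted p = 0.49). Within replicates, the mean of the 3 lower densities exceeded the suspension mean by 3.24, 3.54 and 2.59 fold in replicates 1, 2 and 3. The call at 2.6 mg/ml was lost without replicate 2 or without replicate 3, and that at 3.5 mg/ml without any 1 of the 3 replicates or without replicate 1 at 3.5 mg/ml (log2 fold change 1.82, adjusted p = 0.11). That at 4.4 mg/ml held in each of these fits. At 2.6 mg/ml, 0 of all genes passed without replicate 2 and 4 without replicate 3, with Egr2 at 1.90 and 1.81. At 3.5 mg/ml, 3, 0 and 2 of all genes passed without replicates 1, 2 and 3 in turn, with Egr2 at 1.76, 1.84 and 2.12.

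Egr1 (ENSMUSG00000038418, chr18:34859823-34864984, plus strand), the archetypal early growth response factor, was near its suspension level at the 3 lower densities and high only in libraries of 4.4 mg/ml. The 6 suspension libraries had a lowest, median and highest level of 0.664, 2.27 and 3.52 CPM. The libraries at 1.7 mg/ml held 2.23, 0.978 and 0.736 CPM in replicates 1, 2 and 3. At 2.6 mg/ml the values were 2.94, 3.18 and 2.54 CPM and at 3.5 mg/ml 4.11, 0.913 and 0.670 CPM. A single library of these 9, replicate 1 at 3.5 mg/ml, lay above all suspension libraries. Those at 4.4 mg/ml held 20.4, 39.6 and 3.45 CPM. Replicates 1 and 2 stood far above every other library, and replicate 3 lay within the suspension range. Egr1 rose by a log2 fold change of 3.37 ± 0.66 (adjusted p = 0.0057) at 4.4 mg/ml, a 10.3-fold difference. Within replicates, the fold over suspension at 4.4 mg/ml was 6.97, 16.4 and 4.33, above 1 in 3 of 3 replicates. The call was lost without replicate 2 (log2 fold change 2.73, adjusted p = 0.22). For collagen as a whole, the log2 fold change was 0.78 ± 0.51 (adjusted p = 0.34), and with the replicate block 0.83 ± 0.35 (adjusted p = 0.089).

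Egr3 (ENSMUSG00000033730, chr14:70077203-70082614, plus strand), a relative of Egr2 with overlapping roles in lymphocytes, was close to the detection limit. Its counts ranged from 0 to 30 per library, with 0 counts in replicate 3 at 1.7 mg/ml, where 3 counts would be 0.159 CPM. The 6 suspension libraries measured 0.539, 1.00 and 1.5 CPM (lowest, median and highest) and the 12 collagen libraries 0, 0.480 and 1.35 CPM. In 7 of 12 collagen libraries, Egr3 lay below all suspension libraries, and in none above them. The share of all genes that do so was not counted. The log2 fold change in collagen was -1.10 ± 0.56 (adjusted p = 0.21), and -1.32 ± 0.45 (adjusted p = 0.035) with the replicate block. Egr3 is thus the member of its family whose values pointed down in collagen, past the threshold only with the block (also with the block in DESeq2 and with GC and length offsets).

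Nr4a1 (ENSMUSG00000023034, chr15:101254269-101274795, plus strand), also called Nur77, showed the largest difference of the 10 members at 4.4 mg/ml. The suspension libraries measured 7.0, 2.43 and 0.996 CPM (titled plus CCL19) and 4.56, 2.60 and 0.522 CPM (titled without CCL19) in replicates 1, 2 and 3. In the gel of lowest density, 1.7 mg/ml, the values were 8.40, 1.59 and 2.00 CPM, and at 2.6 mg/ml 7.20, 4.05 and 4.26 CPM. Replicate 1 was the highest of its group in all 5 groups other than 4.4 mg/ml. The libraries at 3.5 mg/ml held 16.5, 2.60 and 0.521 CPM. Those at 4.4 mg/ml held 57.9, 93.2 and 2.7 CPM. Replicates 1 and 2 at 4.4 mg/ml were thus the 2 highest libraries of the series, and replicate 3 overlapped suspension. Nr4a1 rose by a log2 fold change of 4.09 ± 0.96 (adjusted p = 0.014) at 4.4 mg/ml, 17.1-fold on the fitted scale. Within replicates, the fold over suspension was 10.0, 37.1 and 3.56. The value was 3.28 without replicate 2, where the call was lost (adjusted p = 0.32). At the 3 lower densities, log2 fold changes were between 0.40 and 1.13 and did not pass the test. Those at 1.7 and 3.5 mg/ml turned to -0.74 and -0.94 when replicate 1 of that density was left out. For collagen as a whole, the value was 1.60 ± 0.74 (adjusted p = 0.17), and 1.70 ± 0.48 (adjusted p = 0.015) with the replicate block.

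Nr4a2 (ENSMUSG00000026826, chr2:57106830-57124003, minus strand), known as Nurr1, followed Nr4a1 at a higher level, and all 3 of its libraries at 4.4 mg/ml exceeded all suspension libraries. In suspension it measured 14.9, 6.01 and 8.01 CPM (titled plus CCL19) and 10.0, 10.8 and 3.25 CPM (titled without CCL19). Nr4a2 at 1.7 mg/ml measured 16.6, 10.1 and 9.41 CPM and at 2.6 mg/ml 20.0, 17.6 and 18.8 CPM. All 3 libraries at 2.6 mg/ml lay above all suspension libraries, close together. The values at 3.5 mg/ml were 52.2, 10.3 and 11.9 CPM, and at 4.4 mg/ml they were 123, 125 and 22.7 CPM. Of the former 3, only replicate 1 exceeded suspension, and of the latter all 3 did. Nr4a2 rose in collagen by a log2 fold change of 1.60 ± 0.43 (adjusted p = 0.022) and at 4.4 mg/ml by 3.35 ± 0.55 (adjusted p = 0.0022). With the replicate block, it also rose at 2.6 mg/ml by 1.25 ± 0.40 (adjusted p = 0.045) and at 3.5 mg/ml by 1.31 ± 0.41 (adjusted p = 0.046). Without the block, these values were 1.09 ± 0.55 (adjusted p = 0.28) and 1.49 ± 0.54 (adjusted p = 0.16). Within replicates, the fold at 4.4 mg/ml over suspension was 9.88, 14.8 and 4.03, and over 1.7 mg/ml it was 7.40, 12.4 and 2.41. Without replicate 2, the calls in collagen (adjusted p = 0.17) and at 4.4 mg/ml (adjusted p = 0.12) were lost.

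Nr4a3 (ENSMUSG00000028341, chr4:48045153-48086447, plus strand), called NOR1 and linked to migratory DCs, was already abundant in suspension and varied there. Its suspension values were 101, 184 and 219.7 CPM (titled plus CCL19) and 140.3, 377 and 189.8 CPM (titled without CCL19). The libraries at 4.4 mg/ml held 437, 347 and 347 CPM. Of those 3 libraries, 1 exceeded all suspension libraries. The 9 libraries of the lower densities ranged from 154 CPM to 492 CPM, the highest being replicate 3 at 2.6 mg/ml. The log2 fold change at 4.4 mg/ml was 0.92 ± 0.36 (adjusted p = 0.12), and with the replicate block Nr4a3 rose by 1.01 ± 0.31 (adjusted p = 0.025). It was the only NR4A gene that did not pass the test in collagen as a whole with the block, at 0.44 ± 0.23 (adjusted p = 0.17). The family therefore covered a range of differences at 4.4 mg/ml, from 1.89-fold for the most abundant member to 17.1-fold for the least abundant.

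**Figure D2:**
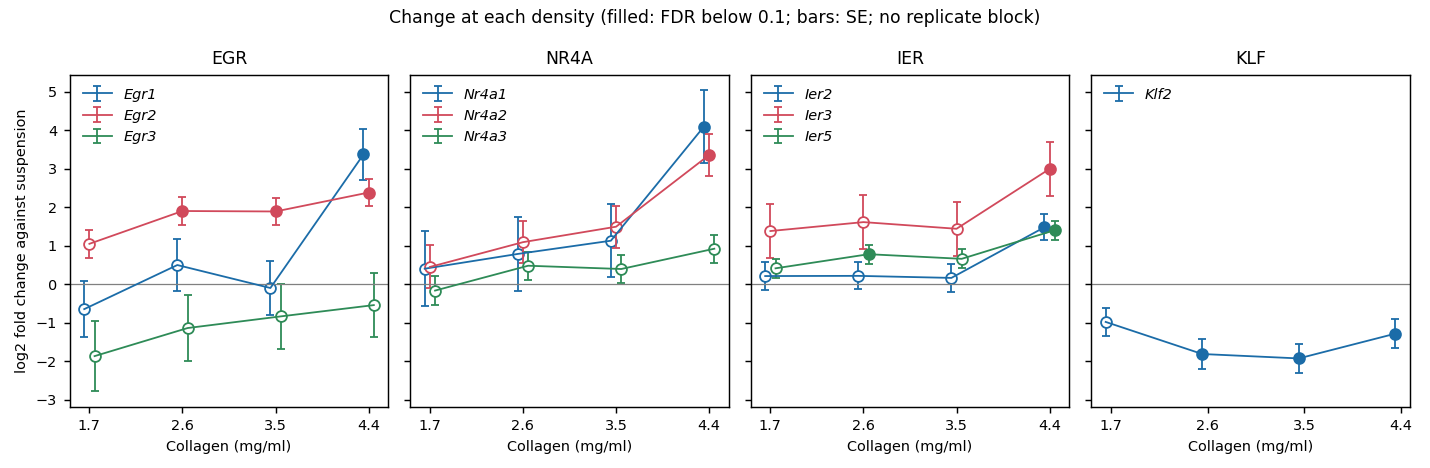
Log2 fold change against the 6 suspension libraries at each collagen density (mg/ml), by family, from the edgeR fit without the replicate block. Bars are SE, filled points passed an FDR of 0.1 over all genes, and the 4 densities share the suspension libraries. At 4.4 mg/ml, 7 members are filled above 0 and Klf2 is filled below 0, whereas at 1.7 mg/ml no member is filled.

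Ier3 (ENSMUSG00000003541, chr17:35821684-35822923, plus strand), a short-lived survival and stress protein also called IEX-1, was the most abundant member and differed both between groups and between replicates. Suspension values were 419, 136 and 82.8 CPM (titled plus CCL19) and 410.5, 82.7 and 60.7 CPM (titled without CCL19). Ier3 at 1.7 mg/ml measured 993, 310.0 and 244 CPM and at 2.6 mg/ml 941, 489 and 386 CPM. Replicate 1 was highest in both suspension groups and at all densities up to 3.5 mg/ml. The values at 3.5 mg/ml were 1082, 298 and 231 CPM and at 4.4 mg/ml 1590, 2649 and 494 CPM. Within replicates, the mean of the 3 lower densities was 2.42, 3.35 and 4.0 fold the suspension mean. The fold at 4.4 mg/ml was 3.83, 24.3 and 6.88, and all 3 libraries exceeded all suspension libraries. Ier3 rose in collagen by a log2 fold change of 1.86 ± 0.56 (adjusted p = 0.039) and at 4.4 mg/ml by 2.99 ± 0.70 (adjusted p = 0.014). With the replicate block it rose at every density, by 1.51 ± 0.35 (adjusted p = 0.047) at 1.7 mg/ml, 1.95 ± 0.35 (adjusted p = 0.0022) at 2.6 mg/ml and 1.51 ± 0.34 (adjusted p = 0.011) at 3.5 mg/ml. Without the block, these 3 values had adjusted p-values of 0.65, 0.20 and 0.30. With replicate 2 left out of every group, the value at 4.4 mg/ml was 2.13 and did not pass.

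Ier5 (ENSMUSG00000056708, chr1:155096361-155099636, minus strand), which acts with protein phosphatase 2A on heat shock factor 1, had the most uniform suspension level of the 10 genes. The 6 suspension libraries lay between 142 and 187 CPM. In replicates 1, 2 and 3, Ier5 measured 284, 199 and 165 CPM at 1.7 mg/ml and 313, 217 and 306 CPM at 2.6 mg/ml. It held 346, 212 and 211 CPM at 3.5 mg/ml and 526, 451 and 309.7 CPM at 4.4 mg/ml. Of the 12 collagen libraries, 11 exceeded all suspension libraries, the exception being replicate 3 at 1.7 mg/ml. Ier5 rose in collagen by 0.81 ± 0.18 (adjusted p = 0.0090) on the log2 scale, at 2.6 mg/ml by 0.78 ± 0.25 (adjusted p = 0.086) and at 4.4 mg/ml by 1.40 ± 0.24 (adjusted p = 0.0028). The value at 3.5 mg/ml was 0.66 ± 0.25 (adjusted p = 0.17), and 0.62 ± 0.20 (adjusted p = 0.054) with the block. The call at 2.6 mg/ml was close to the threshold and was lost in 15 of 21 fits that left out 1 library or 1 replicate, with values between 0.68 and 0.93. Without replicate 2, the calls in collagen (adjusted p = 0.15) and at 4.4 mg/ml (adjusted p = 0.16) were lost as well.

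Ier2 (ENSMUSG00000053560, chr8:84661331-84662852, minus strand), a small nuclear protein linked to cell motility, differed from suspension past the threshold only at the highest density. Suspension values were 35.7, 59.7 and 39.3 CPM (titled plus CCL19) and 35.2, 26.8 and 23.2 CPM (titled without CCL19). The 9 libraries at 1.7, 2.6 and 3.5 mg/ml ranged from 30.3 to 50.4 CPM and all lay within the suspension range. The libraries at 4.4 mg/ml held 83.2, 177 and 38.2 CPM, with replicates 1 and 2 above all suspension libraries and replicate 3 among them. Ier2 rose at 4.4 mg/ml by a log2 fold change of 1.48 ± 0.34 (adjusted p = 0.013). Without replicate 2 at 4.4 mg/ml the value was 0.76 (adjusted p = 0.16), and the call was lost. Without replicate 2 of every group it was 0.89 (adjusted p = 0.36). For collagen as a whole, the log2 fold change was 0.52 ± 0.26 (adjusted p = 0.20), and 0.49 ± 0.21 (adjusted p = 0.092) with the block.

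Klf2 (ENSMUSG00000055148, chr8:72319033-72321656, plus strand) was the member that fell in collagen without the block. Suspension titled plus CCL19 held 11.7, 28.5 and 12.2 CPM in replicates 1, 2 and 3, and suspension titled without CCL19 held 7.57, 6.24 and 10.1 CPM. Klf2 at 1.7 mg/ml measured 6.09, 5.56 and 6.31 CPM and at 2.6 mg/ml 3.18, 4.19 and 2.73 CPM. The values at 3.5 mg/ml were 2.47, 2.67 and 4.17 CPM and at 4.4 mg/ml 6.36, 5.12 and 3.05 CPM. Of 12 collagen libraries, 10 lay below all suspension libraries, among them all 6 at 2.6 and 3.5 mg/ml. Of all genes tested, 6.10% lay wholly below suspension at 2.6 mg/ml and 6.29% at 3.5 mg/ml. The share with as many of the 12 collagen libraries below suspension was not counted. Klf2 fell in collagen with a log2 fold change of -1.50 ± 0.24 (adjusted p = 0.0011). By density, the values were -1.81 ± 0.38 (adjusted p = 0.022) at 2.6 mg/ml, -1.93 ± 0.38 (adjusted p = 0.026) at 3.5 mg/ml and -1.28 ± 0.37 (adjusted p = 0.039) at 4.4 mg/ml. The value at 1.7 mg/ml was -0.98 ± 0.36 (adjusted p = 0.51). Within replicates, collagen over suspension was 0.469, 0.252 and 0.364, below 1 in 3 of 3. The fall in collagen as a whole remained a call without any 1 replicate or library. The calls by density were lost at 2.6 and 4.4 mg/ml without replicate 2 or 3, and at 3.5 mg/ml without any 1 replicate. Without replicates 2 and 3 in turn, 0 and 4 of all genes passed at 2.6 mg/ml, with Klf2 at -1.79 and -1.68. At 4.4 mg/ml, 106 and 946 of all genes passed in these fits, with Klf2 at -1.11 and -1.03. Leaving out replicates 1, 2 and 3 in turn left 3, 0 and 2 of all genes at 3.5 mg/ml, with Klf2 at -1.87, -1.63 and -2.19. A single library was also enough to end each Klf2 call by density. These were replicate 3 at 2.6 mg/ml (-1.64 without it, adjusted p = 0.16), replicate 1 at 3.5 mg/ml (-1.79, adjusted p = 0.14) and replicate 3 at 4.4 mg/ml (-1.04, adjusted p = 0.15).

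Among markers of other cells, those of eosinophils were lower in collagen, as Klf2 was. Of the 8 neutrophil markers, 1 passed as lower in collagen, with and without the block. Of the 6 mast cell and basophil markers, 0 passed, and 2 passed as lower with the block. The 8 eosinophil markers summed to 117 to 1339 CPM in suspension and 14.0 to 168 CPM in collagen, and 7 of the 7 tested passed the test as lower in collagen, with Il5ra too low to test. The library with the highest Klf2, replicate 2 of suspension titled plus CCL19, also had the highest eosinophil sum (1339 CPM) and the highest neutrophil sum (9742 CPM). Without that library, the Klf2 difference was -1.23 on the log2 scale and still passed. The 7 macrophage markers summed to 2491 to 4771 CPM in replicate 1, where Ier3 was also high, against 815 to 4467 CPM in replicate 2 and 413 to 1407 CPM in replicate 3. Within replicate 2, the macrophage sum was highest at 4.4 mg/ml (4467 CPM), the library with the highest Egr1, Egr2, Nr4a1, Nr4a2, Ier2 and Ier3. Among these markers, Cd14 ranged from 198 to 3701 CPM over the libraries, whereas the next highest, Adgre1, reached at most 811 CPM. High macrophage sums can therefore rest largely on Cd14. Of the 7 macrophage markers, 6 were higher in collagen and 6 were higher at 4.4 mg/ml with the block in edgeR, whereas without it their adjusted p-values in both comparisons were 0.20 or above. Mitochondrial transcripts took 0.583 to 1.68% of counts in suspension and 0.832 to 2.90% in collagen. In that same library, replicate 2 at 4.4 mg/ml, the mitochondrial share was the lowest of the collagen libraries (0.832%), against 2.18 and 2.90% in replicates 1 and 3, and the sum of the 6 mast cell and basophil markers was the highest of all 18 libraries (265 CPM). That sum ranged from 27.2 to 244 CPM in suspension. The part of these markers and shares in the differences of the early genes was not tested.

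Counted by density, the members that passed the test numbered between 0 at 1.7 mg/ml and 8 at 4.4 mg/ml. The 4 comparisons share the same suspension libraries. At 1.7 mg/ml, 0 of 10 members passed in edgeR (2 at an unadjusted p under 0.05, and 0 in DESeq2, which called 141 of all genes), against 0.0361% of all genes. With the replicate block 1 member, Ier3, passed, against 2.91% of all genes. At 2.6 mg/ml, Egr2 and Ier5 rose and Klf2 fell, against 7.87% of all genes (4.29% higher and 3.58% lower). With the block, Nr4a2 and Ier3 joined them, against 21.6% of all genes. At 3.5 mg/ml, Egr2 rose and Klf2 fell, against 4.9% of all genes (1.97% higher and 2.93% lower). With the block, Nr4a2, Ier3 and Ier5 also rose there, against 18.4% of all genes. At 4.4 mg/ml, Egr1, Egr2, Nr4a1, Nr4a2, Ier2, Ier3 and Ier5 rose and Klf2 fell, so that 8 of 10 members passed. Among all genes, 14.8% passed at this density (6.55% higher and 8.29% lower). With the block, Nr4a3 made 9 of 10, against 31.9% of all genes. The median log2 fold change of the 10 members at 4.4 mg/ml was 1.93, beside 0.00505 over all genes. Without replicate 2, the count at 4.4 mg/ml was 1 of 10 (Egr2), and 106 of all genes passed.

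Within collagen, the density trend and the 2 ends of the series asked whether the early genes differed with the amount of matrix, with no suspension group in the comparison. Without the block, 0 of 10 members passed for the linear trend in edgeR, although 7 had an unadjusted p under 0.05, against 0.00722% of all genes. DESeq2 called 2 members, Egr1 and Nr4a2, and 122 of all genes. With the block, Egr1, Nr4a1, Nr4a2, Ier3 and Ier5 rose with density, against 1.45% of all genes. The slopes were 1.16 ± 0.21 (adjusted p = 0.033) log2 units per mg/ml for Egr1, 1.10 ± 0.28 (adjusted p = 0.092) for Nr4a1 and 0.93 ± 0.18 (adjusted p = 0.037) for Nr4a2. For Ier3 and Ier5, which were close to the threshold, they were 0.57 ± 0.15 (adjusted p = 0.096) and 0.32 ± 0.08 (adjusted p = 0.096). Between 4.4 and 1.7 mg/ml, 0 members passed without the block in edgeR (7 at an unadjusted p under 0.05), against 0.00722% of all genes. DESeq2 called 3 members there, Egr1, Nr4a2 and Ier5, and 147 of all genes. With the block, Egr1, Egr2, Nr4a1, Nr4a2, Ier3 and Ier5 were higher at 4.4 mg/ml, against 1.73% of all genes. The log2 differences with the block were largest for Egr1 (3.81 ± 0.61), Nr4a1 (3.52 ± 0.81) and Nr4a2 (2.77 ± 0.51), with adjusted p-values of 0.024, 0.054 and 0.029. Klf2 did not pass either comparison, with a slope of -0.11 ± 0.14 (adjusted p = 0.99).

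The shape of the series differed between members. From 1.7 to 3.5 mg/ml, Egr1 went from 1.32 ± 0.804 CPM to 1.90 ± 1.92 CPM and then to 21.2 ± 18.1 CPM at 4.4 mg/ml (SD, n = 3). The step from 3.5 to 4.4 mg/ml within replicates 1, 2 and 3 was 4.97, 43.4 and 5.14 fold for Egr1 and 3.50, 35.9 and 5.18 fold for Nr4a1. For Ier3, the same step was 1.47, 8.89 and 2.14 fold, and for Egr2 it was 1.52, 1.53 and 1.01 fold. Of the 10 members, 8 had this step above 1 in 3 of 3 replicates, all but Egr3 and Klf2. The step from 2.6 to 3.5 mg/ml was above 1 in 3 of 3 replicates for none of the 10. The shares of all genes with such steps were not counted, so these counts only describe the members. No test of the step from 3.5 to 4.4 mg/ml against the others was made. The density comparisons in the fit were to suspension, across the series and between its ends. Over suspension, the folds at 4.4 mg/ml were widest in replicate 2 for Egr1, Nr4a1, Nr4a2, Ier2 and Ier3 and in replicate 1 for Egr2, Nr4a3 and Ier5.

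**Figure D3:**
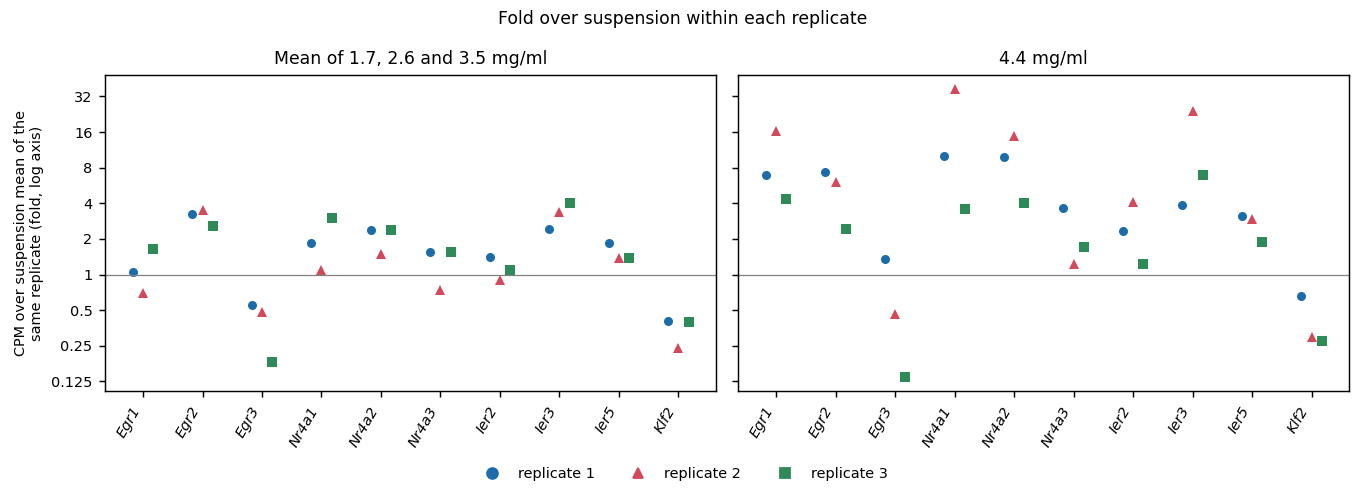
Fold over the mean of the suspension libraries of the same replicate (log axis), for the mean of the 3 lower densities (left) and for 4.4 mg/ml (right). Each point is 1 replicate. At 4.4 mg/ml, 8 of 10 genes lie above 1 in all 3 replicates, with replicate 2 highest for Egr1, Nr4a1, Nr4a2, Ier2 and Ier3, and Klf2 lies below 1 in all 3. The share of all genes that do so was not counted.

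Between the 2 suspension groups, 0 of 10 members passed in edgeR (1, Klf2, at an unadjusted p under 0.05, and 0 in DESeq2), against 0% of all genes without the block and 0% with it. Klf2 was 2.18-fold higher in the group titled plus CCL19, with a log2 difference of 1.13 ± 0.40 (adjusted p = 0.76). Ier2 had the next largest difference, 0.66 ± 0.41 (adjusted p = 0.76). In the other members, the difference was at most 0.49 log2 units in size, with SE of up to 1.14.

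Members were compared with each other over the 18 libraries by Pearson's r of log2 CPM, as a description, since the libraries share depth, groups and 3 replicate batches. Nr4a1 and Egr1 had an r of 0.92 (0.91 after centring within replicates), and Nr4a1 and Nr4a2 had 0.90 (0.92 after centring within replicates). Nr4a2 and Ier5 followed with 0.90 (0.90 after centring within replicates). Nr4a3 had an r of 0.25 (0.68 after centring within replicates) to Nr4a1 and of 0.46 (0.74 after centring within replicates) to Nr4a2. Egr2 was closest to Ier5, at 0.77 (0.88 after centring within replicates), rather than to Egr1, at 0.51 (0.54 after centring within replicates). Klf2 was opposite to Egr2, at -0.67 (-0.73 after centring within replicates).

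Among the other genes tested, the closest profile over the 18 libraries to Nr4a1 was that of Fosb, an AP-1 subunit, with an r of 0.98, then Ppp1r15a and Sde2. Nr4a2 was closest to Rasgef1b (r = 0.97), Tgif1 and Phf13. Egr1 was closest to Sde2 (r = 0.93), Rgs16 and Mafk, and Egr2 to Nup210l (r = 0.92), Chka and Phlda1. Ier3 was closest to Atf4 (r = 0.97), a factor of the integrated stress response, Smim3 and Jmjd6. Ier5 was closest to Gem (r = 0.95), Gm47687 and Ppm1d, and Ier2 to the cytokine gene Tnf (r = 0.91), Rnd1 and Tmem171. For Nr4a3 they were Rpl31-ps6 (r = 0.90), a pseudogene whose reads cannot be assigned with certainty, Ints6 and Vcpip1. Klf2 was closest to Adck1 (r = 0.92), Rnpepl1 and Poldip2, and Egr3, at its low counts, to Dnmbp (r = 0.85), Pecam1 and Tnfrsf21. These are the highest values among 13844 genes less the members and are given without a test.

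Other genes of the same families and their cofactors were read beside the members, Egr4 not being among the symbols matched in the table. Of 10 tested, 4 rose and 1 fell in collagen, and 3 rose and 1 fell at 4.4 mg/ml. With the block, 4 rose and 1 fell in collagen, and 5 rose and 1 fell at 4.4 mg/ml. Their median log2 fold change at 4.4 mg/ml was 0.72. The counts of this and the following lists are to be read beside the shares of all genes that passed. These shares were 20.2% in collagen (7.78% higher, 12.4% lower) and 14.8% for 4.4 mg/ml (6.55% higher, 8.29% lower). Blocking by replicate raised them to 34.8 and 31.9%. Klf6, a ubiquitous early gene of the Klf2 family, rose in collagen by 0.69 ± 0.22 (adjusted p = 0.045), with 120.3 to 305 CPM in suspension and 150.3 to 527 CPM in collagen. Nab1, the EGR corepressor, rose by 0.92 ± 0.31 (adjusted p = 0.057). Rxra, the retinoid X receptor that pairs with Nr4a1 and Nr4a2, fell, with a log2 fold change of -0.72 ± 0.20 (adjusted p = 0.029). The others that rose were Klf3 (0.59 ± 0.21, adjusted p = 0.078) and Klf4 (1.75 ± 0.62, adjusted p = 0.071), both named after their values were seen. Klf4 also rose at 4.4 mg/ml, by 3.29 ± 0.78 (adjusted p = 0.015), the direction opposite to Klf2.

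Of 9 AP-1 and ATF genes, the dimer partners transcribed with the EGR genes after most stimuli, 1 rose in collagen (8 with the block) and 5 rose at 4.4 mg/ml (9 with the block), and none fell. The median log2 fold change at 4.4 mg/ml was 1.67. The gene that rose in collagen was Jun, by 0.62 ± 0.23 (adjusted p = 0.083). Fosb rose at 4.4 mg/ml by 5.91 ± 1.39 (adjusted p = 0.015), with 5.25, 148 and 321 CPM in the 3 libraries from the lowest to the highest. Its suspension libraries reached at most 8.07 CPM, so that, as for Nr4a1, the lowest library at 4.4 mg/ml overlapped them.

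Of 23 other immediate early genes, 4 rose in collagen (12 with the block) and 10 rose at 4.4 mg/ml (17 with the block), and none fell. Their median log2 fold change at 4.4 mg/ml was 1.09. By the smallest p in collagen, these were Phlda1 (1.08 ± 0.22, adjusted p = 0.0049), a pleckstrin homology protein, the kinase Plk2 (1.21 ± 0.27, adjusted p = 0.0074) and Nfkbiz (1.32 ± 0.36, adjusted p = 0.024), a nuclear NF-κB cofactor. Of the 11 ERK feedback genes, 1 rose and 1 fell in collagen and 2 rose at 4.4 mg/ml. With the block, 3 rose and 1 fell in collagen, and 5 rose and 1, Dusp6, fell at 4.4 mg/ml. The ERK feedback counts in collagen were close to the shares of all genes, 20.2% or, blocked by replicate, 34.8%. The count for 4.4 mg/ml was close to 14.8%, and only its blocked count lay above the share of all genes (31.9%). Dusp2, a nuclear phosphatase of MAP kinases, rose in collagen by 0.88 ± 0.30 (adjusted p = 0.065). Dusp6, the cytoplasmic ERK phosphatase, fell, with a log2 fold change of -1.32 ± 0.39 (adjusted p = 0.033).

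Of 12 transcription factors that act on early gene promoters, 2 rose and 4 fell in collagen, with a median log2 fold change of 0.07. These counts were 2 and 5 with the block. At 4.4 mg/ml, 2 rose and 3 fell (4 and 5 with the block). Mrtfa, the actin-regulated partner of serum response factor, fell, with a log2 fold change of -0.89 ± 0.13 (adjusted p = 7.5e-04). All 12 collagen libraries (144 to 209.9 CPM) lay below all 6 suspension libraries (228 to 451 CPM). At a single density, 3.30 to 9.25% of all genes tested lay wholly below suspension, and the share over all 12 libraries was not counted. The cyclic AMP–responsive factors Crem and Creb1 rose by 1.15 ± 0.23 (adjusted p = 0.0047) and 1.04 ± 0.21 (adjusted p = 0.0049). In the medians, the 10 members (1.93 at 4.4 mg/ml) were higher than each of these 5 lists, and no test of the lists was made. Members and lists were chosen with earlier results of these data known, so this order is only a description.

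**Figure D4:**
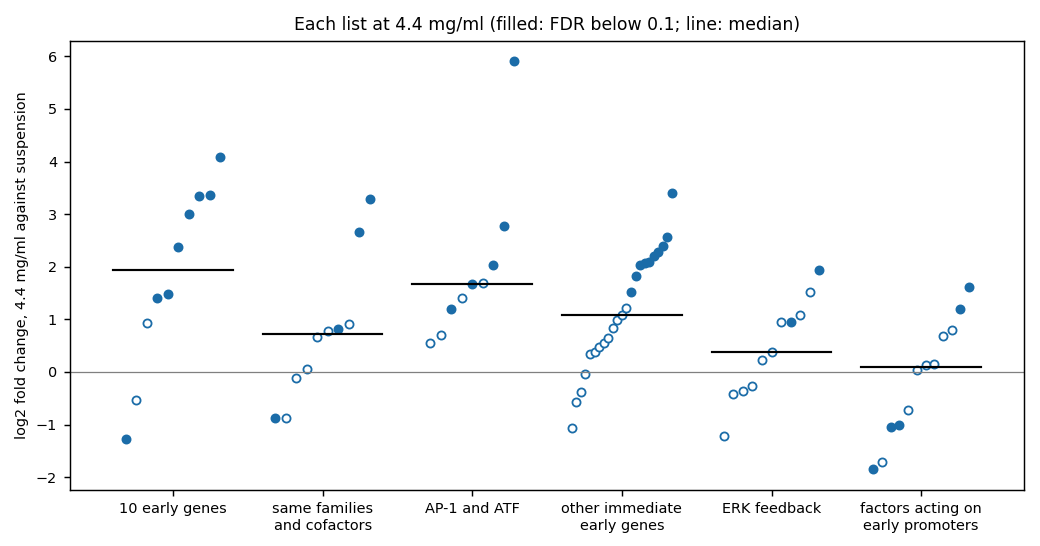
Log2 fold change at 4.4 mg/ml against suspension for the 10 early genes and for 5 lists of related genes, from the edgeR fit without the replicate block. Each point is a gene, filled where it passed an FDR of 0.1 over all genes, and lines are medians. Of the 10 early genes, 8 are filled, and Fosb is the highest point of the AP-1 and ATF genes at 5.91.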

How the data were processed

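Bulk RNA-seq of 18 mouse DC libraries was analysed, 3 per group. According to the methods, the authors made stranded mRNA libraries, read 50 bases from a single end, aligned them with STAR 2.7.0f to GRCm38 and tested genes with DESeq2. The values used here are the raw gene counts that the authors deposited, not normalized. The methods name RSEM for TPM expression values, which were not used here. Whether it also gave the deposited counts is not stated. The strand setting of the counting and its handling of reads with several matches are not given in the sources used here. Symbols came from GENCODE and matched 29866 of 29875 genes, and no annotated gene overlaps a member.

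Counts were filtered with filterByExpr (13844 genes kept), scaled by TMM and fitted with edgeR 4.0.16 in R 4.3.3 over all 18 libraries with group means. The quasi-likelihood test was applied to each comparison, with Benjamini-Hochberg adjustment over all genes kept and an FDR of 0.1. SE was the log2 fold change divided by the square root of F. Log2 CPM used a prior count of 2. Replicate numbers mark a shared date and lane in the library names and so pair the libraries. The deviations of the 45 same-number pairs from their group means had a mean correlation of 0.434, against -0.214 for 90 pairs that share neither number nor group. Because each group mean is taken over its own 3 libraries, the second value largely follows from the first and is not a separate baseline. The fit with the replicate number as a block is given for each member whose call it changes, and for the lists as counts. Intervals from counting error were not needed, since values are compared over replicates. No pair of the 153 possible library pairs was identical.

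All 10 members are named. Of each other list, up to 3 genes past the threshold with the smallest p in collagen against suspension are named, as are the 3 genes most correlated with each member. The members and lists were chosen with earlier results of these data known. Only the edgeR fit without the block was run on simulated counts, for collagen and for 4.4 mg/ml against suspension. The simulation held no replicate effect and used the spread estimated with the block. It therefore does not describe how that fit performs on libraries paired by replicate. The alternatives were the replicate block, DESeq2 1.42.0 with and without it, DESeq2 size factors in edgeR, no filter, GC and length offsets with the block, and leaving out each replicate. Leaving out each other single library was added after seeing the data.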

Additional observations from a re-analysis of the deposited data

Results flagged for a closer look

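Klf2 in replicate 2 of suspension titled plus CCL19 (28.5 CPM) stood apart from the other 5 suspension libraries, which ranged from 6.24 to 12.2 CPM. Its gap to the nearest of them was 0.735 of the range over the 6 libraries, above the critical value of Dixon's test at 95%. The 10 members were each examined in this way, and chance flags about 1 in 20 groups. The same library had the highest summed neutrophil and eosinophil markers, 9742 and 1339 CPM, and their part in the Klf2 value was not tested. The direction of Klf2 in collagen against suspension and its call held without this library.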

How the results depend on the processing

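The replicate number pairs the libraries, and with it as a block in edgeR the number of the 10 members called was 9 in collagen against suspension (5 without the block), 5 for the density trend (0), 6 for 4.4 against 1.7 mg/ml (0), then 1 (0) at 1.7 mg/ml, 5 (3) at a density of 2.6 mg/ml and 5 (2) at one of 3.5 mg/ml, each against suspension. It also added Nr4a3 at 4.4 mg/ml (9 in place of 8) and changed no other call of a member. With GC and length offsets added to the block, the same counts were 10, 8, 8, 3, 7 and 5, while 5190, 764, 982, 722, 3565 and 2527 of all genes were called. DESeq2 called 2 members for the trend (122 of all genes), 4 at 3.5 mg/ml (1343) and 3 for 4.4 against 1.7 mg/ml (147). DESeq2 with the replicate block called 9, 8, 8, 4, 5 and 5 members in the order above, and 5381, 811, 918, 1095, 3665 and 3200 of all genes. Without the filter on low counts, 4 members were called for the trend (139 of all genes), 1 at 1.7 mg/ml (79), 4 at 3.5 mg/ml (706) and 4 for 4.4 against 1.7 mg/ml (151). Without these changes, edgeR called 2790, 1, 1, 5, 1090 and 679 of all genes in the order above. At 4.4 mg/ml against suspension, 8 to 9 members were called under each of these alternatives, and between the suspension groups 0 were. The cause of these differences was not tested. Leaving out 1 replicate or 1 library gave between 2 and 7 called in collagen, 0 and 3 at 2.6 mg/ml and 0 and 2 for the density of 3.5 mg/ml. It gave between 1 and 9 for that of 4.4 mg/ml, the lowest without replicate 2, and 0 and 1 for 4.4 against 1.7 mg/ml. Without replicate 2, the counts of all genes called in this order were 631, 0, 0, 106 and 0. Without replicate 3 they were 1431, 4, 2, 946 and 0, and without replicate 1 they were 1550, 1318, 3, 1615 and 0.

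Changes of sign were limited to values that were called neither in edgeR without the block nor under the alternative concerned. With the block and offsets, the log2 fold change of Nr4a3 at 1.7 mg/ml was 0.0080, that of Egr1 at 3.5 mg/ml was 0.21, and between the suspension groups Egr3 was -0.23 and Ier3 -0.0656. Egr3 was -0.12 there with the block, in edgeR and in DESeq2. Over the fits that left out a replicate or library, Nr4a3 ranged from -0.33 to 0.19 and Nr4a1 from -0.74 to 0.96 at 1.7 mg/ml, and Nr4a3 from -0.19 to 0.98 at 2.6 mg/ml. At 3.5 mg/ml, Egr1 ranged from -1.36 to 0.42, Nr4a1 from -0.94 to 1.69 and Ier2 from -0.0259 to 0.33. Between the suspension groups, Egr1 ranged from -0.60 to 0.27, Egr3 from -0.29 to 0.39, Nr4a1 from -0.59 to 1.16, Nr4a2 from -0.16 to 0.85, Nr4a3 from -0.86 to 0.0487 and Ier3 from -0.72 to 1.59. Egr3 rests on 0 to 30 counts per library, and the biological coefficient of variation of 49.0% (33.1% with the block) limits small differences in all.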
